A study of Mus musculus with 6 samples.

Results

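The 10 genes described here mark mast cells and basophils, and they were read in cultures grown to contain pro-B cells, the early precursors of B lymphocytes. They are Cpa3, Mcpt8, Mcpt4, Fcer1a, Ms4a2, Prss34, Tpsb2, Cma1, Hdc and Gzmb. They were taken by gene symbol as known markers, with earlier results of these data known. All 10 have 1 row each among the 22551 gene symbols of the expression matrix. RNA was sequenced from 6 mouse bone marrow cultures in B cell methylcellulose, a semi-solid medium, with colonies collected after 1 week at passage 1. By title, 3 libraries are wild-type and 3 are Ts1Rhr, a mouse strain with an engineered extra copy of a stretch of chromosome 16, while the genotype field reads Ts1Rhr for all 6. The labels give no age, sex or number of animals. The 6 value columns are headed p1A1, p1A2, p1A3, p1C1, p1C2 and p1C3, and the sources used here do not say which genotype the letter A or C stands for. Each column was therefore read as 1 passage 1 culture of unstated genotype, and no genotype comparison and no test was made.

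Mast cells and basophils are granulocyte-related cells that carry the high-affinity IgE receptor and release histamine and serine proteases when it is crosslinked. Mouse mast cells of connective tissue store chymases (Cma1, Mcpt4), the tryptase Tpsb2 and carboxypeptidase A3 (Cpa3). Mouse basophils are marked by 2 other granule proteases, Mcpt8 and Prss34. The IgE receptor is built from an alpha chain (Fcer1a), a beta chain (Ms4a2) and a gamma chain (Fcer1g) that many myeloid cells use in other Fc receptors. Hdc makes histamine from histidine, and Gzmb is a granule protease best known from cytotoxic lymphocytes.

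The cultures held transcripts of the basophil proteases at a low level and listed the mast cell chymases and tryptase at 0. At a detection level of 1 FPKM (mapped fragments divided by transcript length and by library size, a unit in which levels of different genes can be set side by side), 2 of the 10 members, Prss34 and Mcpt8, were detected in every culture. Cpa3 was the only other member to reach 1 FPKM in any culture. Over all 22551 symbols, 45.7% were at this level in every culture and 49.3% in at least 1. Fcer1a, Ms4a2, Hdc and Gzmb had values above 0 but below 1 FPKM, and Mcpt4, Tpsb2 and Cma1 were at 0 in all 6. Of the 22551 symbols, 15338 to 15875 were above 0 in a culture, and the share at 0 in all 6 was not computed. These are bulk cultures, in which fewer cells of a type and less RNA per cell cannot be told apart.

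The start regions of 4 members are shown because their levels mark the ends of this range: Prss34, Mcpt8 and Cpa3 were the 3 most abundant, and Mcpt4 was listed at 0. Each is the 150 bases before the RefSeq transcription start in the GRCm38.p6 build, read 5′ to 3′ on the gene's strand. Capitals mark a GATA word, which is AGATAA or TGATAA or AGATAG or TGATAG on either strand, a binding word of GATA factors.
Prss34: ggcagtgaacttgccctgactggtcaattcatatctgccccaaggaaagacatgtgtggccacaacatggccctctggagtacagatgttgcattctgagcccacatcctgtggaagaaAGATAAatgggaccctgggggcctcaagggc
Mcpt8: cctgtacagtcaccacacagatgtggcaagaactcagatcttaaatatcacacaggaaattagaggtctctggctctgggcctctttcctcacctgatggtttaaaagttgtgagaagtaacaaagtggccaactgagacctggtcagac
Cpa3: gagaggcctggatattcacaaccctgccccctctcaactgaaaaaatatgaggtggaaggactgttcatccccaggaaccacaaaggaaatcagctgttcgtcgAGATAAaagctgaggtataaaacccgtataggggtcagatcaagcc
Mcpt4: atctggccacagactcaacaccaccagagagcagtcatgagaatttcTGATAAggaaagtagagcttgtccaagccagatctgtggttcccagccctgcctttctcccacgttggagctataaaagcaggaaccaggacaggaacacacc

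The Prss34 stretch lies at chr17:25298244-25298393 on the plus strand, and the other 3 lie on the minus strand: Mcpt8 at chr14:56085198-56085347, Cpa3 at chr3:20242182-20242331 and Mcpt4 at chr14:56062311-56062460. A GATA word stood in the windows of Prss34, Cpa3 and Mcpt4 and not in that of Mcpt8. A match is a description of the letters and not of a bound factor. The GENCODE annotation starts Mcpt8 at 56085273, inside its window, so part of that stretch lies within the annotated gene. The 250 bases before the RefSeq start also held no word for Mcpt8, and they include the 150 bases before the GENCODE start. RefSeq start regions were at hand for 9 of the 10 members. In the 150 bases before the start, 6 of the 9 held a word, beside 16.0% of all 32851 start regions. In the full 250 bases, 7 of the 9 held one, beside 26.5% of all. Mcpt8 and Gzmb had none in 250 bases, and Ms4a2, with 3, had the most of the 9.

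Prss34, the basophil protease also called mast cell protease 11, was the most abundant member in each of the 6 cultures. Its level was 4.23 FPKM in p1A1, 7.77 in p1A2, 4.96 in p1A3, 3.34 in p1C1, 8.36 in p1C2 and 6.31 in p1C3. The median was 5.63 FPKM and the highest culture was 2.5 times the lowest. p1C2 and p1A2 were high, p1C3 stood between, and p1C1 was lowest. Among genes with a value above 0 in the same culture, Prss34 lay between the 43.9th percentile in p1C1 and the 59.4th in p1C2. It was thus near the middle of the 15338 to 15875 symbols read above 0 in a culture.

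Mcpt8, mast cell protease 8, is the protease most often used to mark mouse basophils. It was at 2.51 FPKM in p1A1, 4.43 in p1A2, 2.37 in p1A3, 1.78 in p1C1, 4.50 in p1C2 and 2.98 in p1C3. The same cultures as for Prss34 were the 3 highest, in the same order, and p1C1 was again lowest. The ratio of Prss34 to Mcpt8 stayed between 1.69 in p1A1 and 2.12 in p1C3 while each gene spanned 2.5-fold. Together the 2 proteases made up 77.4% to 84.1% of the summed FPKM of the 10 members.

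Cpa3 encodes carboxypeptidase A3, a protease of mast cell granules that basophils and their progenitors also express. Its level was 0.744 FPKM in p1A1, 1.52 in p1A2, 0.651 in p1A3, 0.736 in p1C1, 1.35 in p1C2 and 1.13 in p1C3. It passed 1 FPKM in the same 3 cultures that were highest for Prss34 and Mcpt8, and it lay below 1 FPKM in the other 3. Its highest culture was p1A2, at 2.33 times the lowest, p1A3. Mcpt8 exceeded Cpa3 in every culture, by 2.42-fold in p1C1 to 3.65-fold in p1A3.

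**Figure D1:**
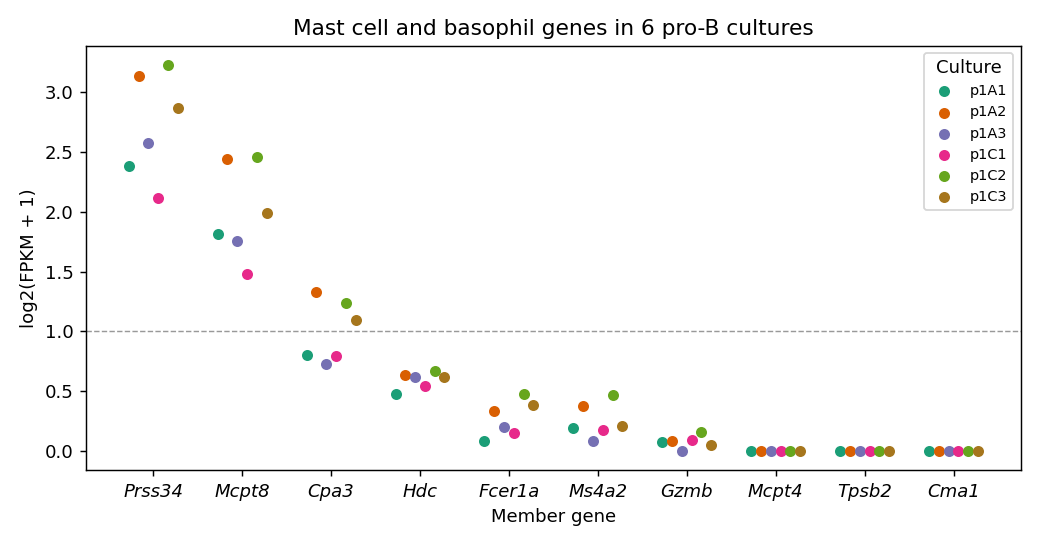
Level of each of the 10 members as log2(FPKM + 1), with 1 point per culture coloured by its column code; the dashed line marks 1 FPKM. Prss34 and Mcpt8 lie above the line in all 6 cultures, Cpa3 crosses it in 3, and Mcpt4, Tpsb2 and Cma1 lie at 0.

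The mast cell tryptase and chymases were at the bottom of the range. Tpsb2, the tryptase mast cell protease 6, Mcpt4, the chymase mast cell protease 4, and Cma1, the chymase mast cell protease 5, were each listed at 0 FPKM in all 6 cultures. An exact 0 in such a file can also be a failed estimate. None of 12 ubiquitous reference genes was at 0 in any culture. Close relatives were at or near 0 as well: Tpsab1, the other main mast cell tryptase, reached 0.0827 FPKM in p1C2 at most and was at 0 in p1A2, p1C1 and p1C3. Mcpt1 did not exceed 0.0691 FPKM, and Mcpt2 was above 0 in p1A1 alone, at 0.0303. Reads of such similar genes can be divided between copies in counting, so single values in this family are uncertain, although each chymase and tryptase named here was under 0.1 FPKM.

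The detected proteases lie beside relatives that were at or near 0. Cma1, Mcpt4, Mcpt8 and Gzmb belong to a block of 15 protein-coding genes on chromosome 14, from 55941451 to 56262260 in the GRCm38 GENCODE annotation, all of which have a row in the matrix. Within it Mcpt8 (56082166 to 56085273, minus strand) and its neighbour Ctsg, cathepsin G, which neutrophil precursors also express, were at 1 FPKM or more in every culture. Ctsg was at 3.06, 5.52, 3.03, 2.79, 4.98 and 2.45 FPKM in p1A1, p1A2, p1A3, p1C1, p1C2 and p1C3, so it was high in p1A2 and p1C2, as Mcpt8 was, but lowest in p1C3. Of the other 13 genes, 12 stayed below 0.1 FPKM in every culture, 6 of them at 0 throughout, and Gzmb peaked at 0.118. Prss34 (25298394 to 25300165, plus strand) opens a block of 6 genes on chromosome 17 that ends at 25374442 and holds Tpsb2 (25366305 to 25369098, plus strand). Prss34 was the only gene of that block at 1 FPKM in every culture, and the other 5 stayed below 0.1 FPKM. The shares of all symbols below 0.1 FPKM or at 0 in every culture were not computed, so these counts have no baseline.

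**Figure D2:**
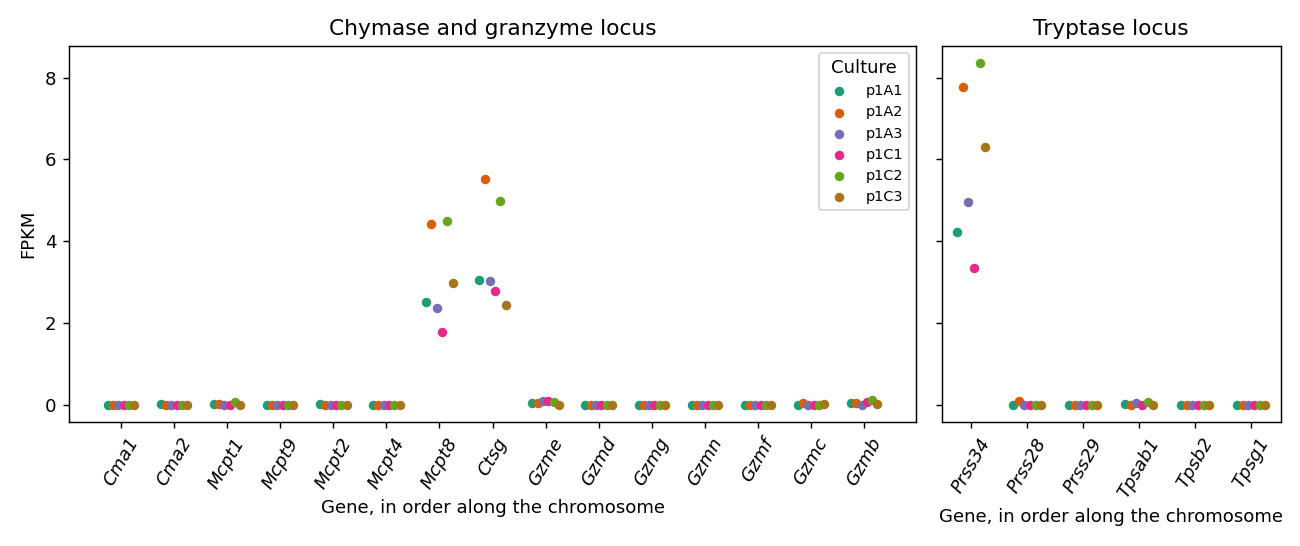
FPKM of the genes of the chromosome 14 chymase and granzyme block and of the chromosome 17 tryptase block, in order along each chromosome, with 1 point per culture. Mcpt8 and Ctsg stand up on the left (1.78 to 5.52 FPKM) and Prss34 on the right (3.34 to 8.36 FPKM); every other gene stays at or under 0.118 FPKM.

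The chains of the IgE receptor were read at very different levels. Fcer1a, the chain that binds IgE, was at 0.0598 FPKM in p1A1, 0.259 in p1A2, 0.148 in p1A3, 0.110 in p1C1, 0.390 in p1C2 and 0.303 in p1C3. Ms4a2, the signal-amplifying beta chain, was at 0.140, 0.30, 0.0569, 0.126, 0.385 and 0.158 FPKM in the same order of cultures. Both were highest in p1C2, as Prss34 and Mcpt8 were, but their ratio moved from 0.428 in p1A1 to 2.61 in p1A3. The shared gamma chain Fcer1g was read at 113 FPKM in p1C1 to 214 in p1A2, 429 to 2390 times the level of Fcer1a. Macrophage genes were abundant in the same cultures (9 of 9 with a row at 1 FPKM or more in every culture), and their part in the Fcer1g level was not tested.

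The values of Fcer1a, Ms4a2 and Gzmb in p1A1, p1A2, p1C1 and p1C3 could be written as whole multiples of 1 step per culture, within 0.15 of a whole number. The smallest whole numbers that fit Fcer1a are 2, 8, 4 and 11 steps in p1A1, p1A2, p1C1 and p1C3, those for Ms4a2 are 4, 8, 4 and 5, and those for Gzmb are 3, 3, 4 and 2. If a step is 1 fragment, the Fcer1a value of p1A1 is 2 fragments, and the order of neighbouring cultures in these 3 genes is within counting error. The p1A1 ratios of Fcer1a to Ms4a2 and of Fcer1g to Fcer1a then rest on such small counts. No steps were fitted to these genes in p1A3, where Fcer1a over Ms4a2 was highest. The step of p1A3 was 1.91 times that of p1C2, so 1 step weighed more in p1A3, as it does at lower depth. The sources hold no read totals per library, and no interval or floor is attached to the values.

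Hdc, the histamine-forming enzyme, spanned less than the detected proteases. It was at 0.392 FPKM in p1A1, 0.555 in p1A2, 0.531 in p1A3, 0.455 in p1C1, 0.586 in p1C2 and 0.538 in p1C3. The highest culture was 1.5 times the lowest, and p1A3 and p1C3 lay close to p1A2. Gzmb was read at 0.0562, 0.0602, 0, 0.0678, 0.118 and 0.0342 FPKM in p1A1, p1A2, p1A3, p1C1, p1C2 and p1C3. T and NK cells can also express Gzmb. Of 16 of their genes, 1 reached 1 FPKM in any culture, beside 49.3% of all symbols. It was Nkg7, a cytotoxic granule gene, at up to 3.25 FPKM in p1C2. Gzmb peaked at 0.118 FPKM, so a cut at 1 FPKM does not bear on its source, which was not tested.

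Spread over the cultures was set beside that of genes of similar mean level (within 0.25 on the log2 scale). The SD of log2(FPKM + 1) was 0.43 for Prss34, with a median of 0.13 among 1168 like genes, and 97.9% of those varied less. It was 0.39 for Mcpt8 (median 0.145 of 880 like genes, 95% varying less) and 0.26 for Cpa3 (848 like genes, 85.1% varying less). Fcer1a and Ms4a2 exceeded 92.1% and 94.8% of their like genes, most of which are near 0. Hdc, with an SD of 0.07 against a median of 0.12, varied less than most, exceeding 14.5% of 1194 like genes. In all, 6 of the 7 members with any value above 0 varied more than the median like gene, Hdc being the exception. Fcer1a, Ms4a2 and Gzmb are in this count, although their like genes are mostly near 0, where this SD is small.

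Summed over the 10 members, the level was 8.13 FPKM in p1A1, 14.9 in p1A2, 8.72 in p1A3, 6.62 in p1C1, 15.7 in p1C2 and 11.5 in p1C3. The median was 10.1 FPKM, and p1C2 was 2.37 times p1C1. p1C2 and p1A2 stood apart from the 3 lowest cultures, with p1C3 between them, and the order of those top 2 turned when each culture was rescaled to the same column sum or by the median ratio of expressed genes. Prss34 alone gave 50.5% to 56.9% of the sum in every culture. Both letters had a high and a low culture.

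The members were set against the B-lineage genes, which identify the intended cells. All 13 B-lineage genes, among them Cd79a and Vpreb1, were at 1 FPKM or more in every culture, and their sum ran from 1780 FPKM in p1A2 to 2765 in p1C2. For every 100 FPKM of B-lineage genes there were 0.380 FPKM of the members in p1A1, 0.836 in p1A2, 0.324 in p1A3, 0.246 in p1C1, 0.567 in p1C2 and 0.447 in p1C3. On this scale p1A2 was highest, at 3.4 times p1C1, since it combined a high member sum with the lowest B-lineage sum. p1C2 was high in both sums. The values give RNA levels only, and no share of cells was computed from them.

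Lists of other blood cells also differed between the cultures. The 10 neutrophil granule genes, all at 1 FPKM or more in every culture, summed to 216, 407, 212, 188, 361 and 250 FPKM in p1A1, p1A2, p1A3, p1C1, p1C2 and p1C3, highest in p1A2 and lowest in p1C1. Per 100 FPKM of those genes the members came to 3.52 FPKM in p1C1 to 4.58 in p1C3, a 1.3-fold span. The 9 macrophage genes with a row summed to 3302 FPKM in p1C1 to 6097 in p1A2, and the members came to 0.173 FPKM per 100 of them in p1A1 to 0.326 in p1C2. The 16 T and NK cell genes, 2 of them at 0 in every culture, summed to 2.61, 5.17, 3.57, 2.26, 6.68 and 4.01 FPKM in p1A1, p1A2, p1A3, p1C1, p1C2 and p1C3, with p1C2 highest and p1C1 lowest, as for the members. The place of p1C2 above p1A2 in this sum rests on Nkg7, at 3.25 FPKM in p1C2 and 1.45 in p1A2. The 9 erythroid and platelet genes summed to 19.0 FPKM in p1C1 to 55.5 in p1A2, a sum made up mostly of the platelet chemokine Pf4 (17.7 FPKM in p1C1 to 45.4 in p1A2). The part of these cells in the member levels was not tested.

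**Figure D3:**
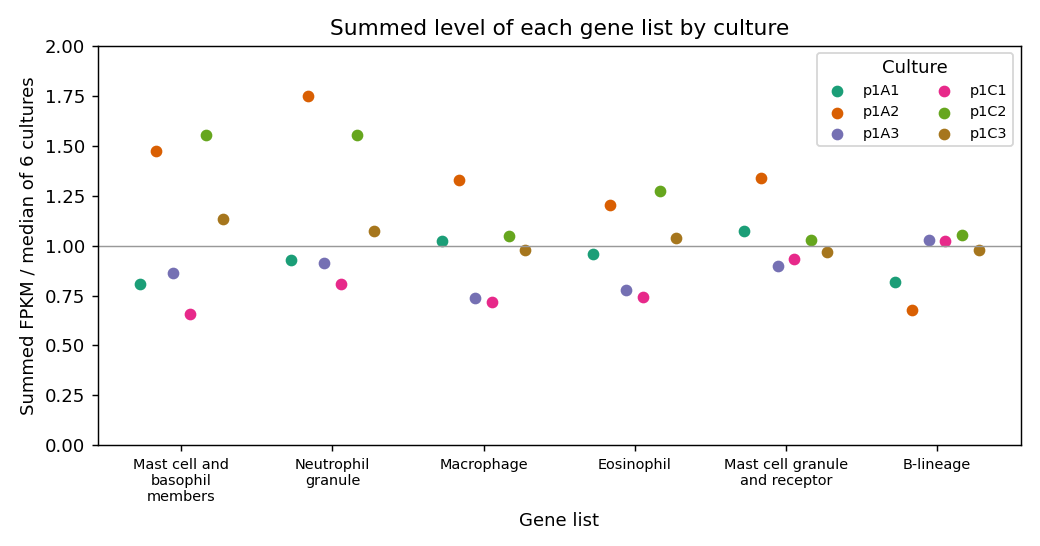
Summed FPKM of 6 gene lists in each culture, divided by that list's median over the 6 cultures, with 1 point per culture. The members and the neutrophil granule genes are high in p1A2 and p1C2, while the B-lineage sum is lowest in p1A2.

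Further genes of both cell types were read from wider lists. Of 19 other mast cell granule and receptor genes, 6 reached 1 FPKM in any culture, beside 49.3% of all symbols, and 5 in every culture, beside 45.7%. Those 5 were Hpgds, a prostaglandin D2 synthase, Ndst2, a heparin-modifying enzyme, Kit, the stem cell factor receptor, Ctsg and Mitf, a transcription factor. None of these 5 is restricted to mast cells, and their order differed from that of the members. Kit, also carried by early pro-B cells, was lowest in p1A2 (3.91 FPKM) and highest in p1C1 (7.74), the culture in which Prss34 was lowest. Hpgds ran from 5.97 FPKM in p1A3 to 15.5 in p1A2.

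Of 18 basophil-related genes, 10 reached 1 FPKM in any culture and 9 in every culture, a share near that over all symbols. The most abundant were 2 beta chains of the IL-3 receptor, Csf2rb (72.7 FPKM in p1A3 to 141 in p1A2) and Csf2rb2 (31.9 in p1C1 to 68.2 in p1A2), and Cebpa, a myeloid transcription factor (17.9 in p1C1 to 36.1 in p1A2). These genes are also used by other myeloid cells. The more basophil-restricted receptor Cd200r3 was between 0.0187 FPKM in p1C1 and 0.237 in p1A2, and the cytokine Il4 was above 0 in p1C2 alone, at 0.120 FPKM. Gata2, a transcription factor needed by both cell types, was at 0.242 FPKM in p1C1 to 0.568 in p1A2.

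Eosinophils are granulocytes that share several genes with basophils. Of 8 with a row, 5 reached 1 FPKM in any culture, beside 49.3% of all symbols, and 3 in every culture, beside 45.7%. The sum of the 8 ran from 9.98 FPKM in p1C1 to 17.1 in p1C2. Prg2, the eosinophil major basic protein that basophils also express, was at 5.44, 7.40, 2.94, 2.37, 6.57 and 5.30 FPKM in p1A1, p1A2, p1A3, p1C1, p1C2 and p1C3. Its highest and lowest cultures were p1A2 and p1C1. Epx, the eosinophil peroxidase, did not exceed 0.248 FPKM.

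Genes whose pattern over the 6 cultures was most like that of Prss34, Mcpt8 and Cpa3 were ranked by Pearson's r with the mean log2(FPKM + 1) of those 3, among 328 other genes that reached 5 FPKM and spanned at least 1 on that scale. The 10 highest were S100a8 (r = 0.979), Oas1a (0.957), Ngp (0.956), Pdzk1ip1 (0.951), Matk (0.920), Lst1 (0.919), Ckb (0.919), Cdkn1c (0.916), AF251705 (0.901) and Trem2 (0.900). S100a8, a calcium-binding protein of neutrophils and monocytes, was at 89.9, 158, 84.3, 75.3, 149 and 102 FPKM in p1A1, p1A2, p1A3, p1C1, p1C2 and p1C3. Its 3 highest cultures were those of Prss34, with p1A2 and p1C2 exchanged. Ngp, neutrophilic granule protein, spanned 15.9 FPKM in p1C1 to 39.8 in p1A2. With 6 cultures and genes picked as the highest of many, these r values describe the order of the cultures and no more.

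**Figure D4:**
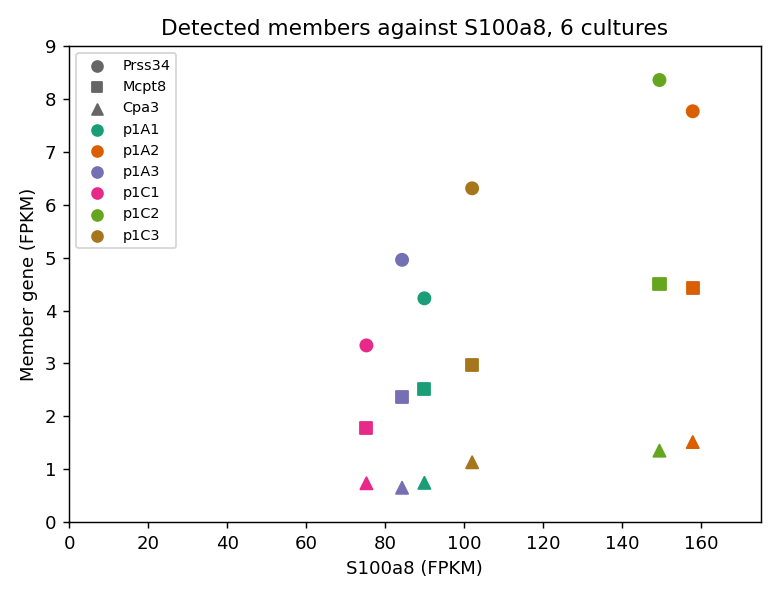
FPKM of Prss34 (circles), Mcpt8 (squares) and Cpa3 (triangles) against FPKM of S100a8, with 1 point per culture coloured by its code. The cultures p1A2 and p1C2 lie at the right with S100a8 at 158 and 149 FPKM and Prss34 at 7.77 and 8.36 FPKM, and p1C1 lies at the left.

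Pearson's r between libraries was 0.971 to 0.995 for log2 FPKM over the 10302 symbols at 1 FPKM or more in every culture. The lowest values divided the 6 libraries in a way the labels do not give: within p1A1, p1A2, p1C1 and p1C3, and between p1A3 and p1C2, 6.15% to 8.38% of the low genes read in both libraries of a pair (at most 2479) shared the commonest ratio of values, and across these sets 2.12% to 2.74% did. This division crosses the letters and separates the 2 highest cultures, p1A2 and p1C2. Within the set of 4, the summed member level spanned 2.25-fold, from p1C1 to p1A2, and p1C2 was 1.8 times p1A3.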

How the data were processed

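RNA of 6 mouse pro-B cultures was sequenced on Illumina TruSeq libraries, per the labels' protocols. TopHat2 2.0.7, Bowtie2, FastQC and Cufflinks 2.0.0 are named in the submitters' processing notes, as are GRCm38 and mm9, all without a role. The authors deposited 1 matrix of FPKM values with 23021 rows, from which symbols repeated over rows were summed. The sources hold no read totals, so the depth of each library is unknown. The 6 columns were mapped to the passage 1 pro-B condition that all titles share, and not to a genotype. No test was made.

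The members and lists were chosen with earlier results of these data known. Every member was named; of each other list, the 5 genes of highest median, or with over 3-fold span at 5 FPKM or more, could be named, and the 10 genes most like the members. Tpsab1, Mcpt1, Mcpt2, Cd200r3, Il4, Gata2, Epx and the gene blocks on chromosomes 14 and 17 were chosen after their values were seen. The step and likeness calculations were tested on simulated data. Gene positions come from GENCODE vM21 and start regions from RefSeq. Python 3.11.15, pandas 2.3.3 and numpy 2.4.6 were used. Alternatives covered detection level, scaling, pseudocount, duplicate rows, left-out members and left-out cultures.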

Additional observations from a re-analysis of the deposited data

Results flagged for a closer look

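Of 70 values examined (named genes and list sums), 4 had 1 culture far from the other 5 relative to the range. The rule flags about 1 in 20 of independent, normally distributed values. These values are not independent, since list sums contain named genes, and no chance rate was computed for them. In p1A2, Csf2rb2 was at 68.2 FPKM with the next culture at 43.8, Mitf was at 5.88 FPKM with the next at 3.79, and Mpo, the neutrophil myeloperoxidase, was at 29.5 FPKM with the next at 17.4. In p1C3, Ptpn6, a phosphatase of receptor signalling, was lowest at 55.2 FPKM with the next at 63.7. None of the 7 members with a value above 0 was marked in this way.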

How the results depend on the processing

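No paired analysis was possible because no column of values is tied to a genotype. The count of members detected in every culture, 2 at 1 FPKM, was 4 at 0.1 FPKM, 0 at 5 FPKM and 4 when each culture was rescaled to the same total as TPM, which raises all values. The count detected in at least 1 culture, 3, was 7 at 0.1 FPKM and 1 at 5 FPKM. The median member sum of 10.1 FPKM became 25.97 after that rescaling and 4.52 without Prss34, and the median per 100 FPKM of B-lineage genes fell from 0.4135 to 0.192 without Prss34, by construction. Leaving out single cultures gave 8.72 to 11.5 FPKM for the median sum, 1.93 to 2.37 for its highest-to-lowest ratio and 0.380 to 0.447 per 100 FPKM of B-lineage genes; both detection counts did not move. The other alternatives listed before left these results within the spread between cultures or within 1.5 times. The comparison within the sets of 4 and 2 libraries was chosen after seeing the data. Read depth is unknown; Fcer1a, Ms4a2 and Gzmb came to 2 to 11 steps in the 4 cultures where steps were fitted, and how far depth limits them was not tested.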
